A study of Rattus norvegicus with 12 samples.

Results

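The genes described here encode the building blocks and regulators of the hepatocyte cytoskeleton. They are 10 genes chosen by symbol for this role: the actins ACTB and ACTG1, the actin monomer binding protein TMSB10, the α-tubulins TUBA1A and TUBA1B, the β-tubulins TUBB5 and TUBB2A, the microtubule regulator STMN1, and the keratins KRT8 and KRT18. All 10 were found among the 14692 genes of the expression table. Expression was measured by poly(A) RNA sequencing of whole liver from male Sprague Dawley rats 4 to 5 months old, and is given as RPKM (a read count scaled to transcript length and to the mapped reads of the library). Every rat carried a duodenal catheter with saline infusion. The 3 treatments were a sham operation, an external biliary fistula (BF) that drained bile, and the fistula with sodium taurocholate, a bile acid, returned to the duodenum at 0.5 mg per g body weight per day from 12 h before surgery. The fistula was placed 24 h before partial hepatectomy (PH, removal of 2/3 of the liver), and liver was taken at 0, 4, 12 and 24 h after PH. Each group and time is 1 column of values, which the authors combined from 2 sequencing runs, the first of 1 rat and the second of pooled RNA from 3 rats. There are therefore 12 columns and no replicate within a group at a time.

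The columns are titled Control, BF and BA, and the names of the fistula groups conflict within the labels. The samples titled BA are described as having a fistula without bile and those titled BF as having a fistula with bile acid infusion, whereas the study uses BF for the drained rats. CYP7A1, the rate-limiting enzyme of bile acid synthesis, was listed at 60 RPKM in Control, 386.93 RPKM in BF and 54.92 RPKM in BA at 0 h. The groups are called below by their titles, Control, BF and BA. Comparisons between times treat the groups as blocks and do not depend on these names.

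Actin filaments, microtubules and keratin filaments are the main components of the cytoskeleton of an epithelial cell. Actin polymerizes from monomers that thymosins hold in reserve, microtubules grow from dimers of α- and β-tubulin that stathmin (STMN1) can sequester, and the spindle that divides the chromosomes is built of the same dimers. Keratins form filaments only as pairs of a type I and a type II chain, and KRT8 (type II) with KRT18 (type I) is the pair of the normal hepatocyte, while bile duct cells also carry KRT7 and KRT19.

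Promoter sequences are shown for the genes on which the time courses below turn: 3 genes of the microtubule system that rose together at 24 h, and the keratin pair whose members followed different courses. Each is the 250 bases before the annotated start of the gene, 5′ to 3′ on the gene's strand, from RefSeq on the GRCr8 rat assembly, and capitals mark matches to CCAAT or TATAAA on either strand.
TUBA1B, chr7:131972588-131972837, minus strand: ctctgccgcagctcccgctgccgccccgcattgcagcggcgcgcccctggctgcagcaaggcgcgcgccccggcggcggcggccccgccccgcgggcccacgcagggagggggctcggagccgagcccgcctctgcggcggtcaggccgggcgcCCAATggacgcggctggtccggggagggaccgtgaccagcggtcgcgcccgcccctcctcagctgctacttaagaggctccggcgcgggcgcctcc
TUBB5, chr20:2917327-2917576, plus strand: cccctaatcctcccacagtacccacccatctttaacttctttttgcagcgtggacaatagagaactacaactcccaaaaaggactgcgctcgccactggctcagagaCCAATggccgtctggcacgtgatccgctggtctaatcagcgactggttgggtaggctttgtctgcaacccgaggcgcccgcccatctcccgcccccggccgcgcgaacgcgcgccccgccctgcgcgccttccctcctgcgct
STMN1, chr5:151964929-151965178, plus strand: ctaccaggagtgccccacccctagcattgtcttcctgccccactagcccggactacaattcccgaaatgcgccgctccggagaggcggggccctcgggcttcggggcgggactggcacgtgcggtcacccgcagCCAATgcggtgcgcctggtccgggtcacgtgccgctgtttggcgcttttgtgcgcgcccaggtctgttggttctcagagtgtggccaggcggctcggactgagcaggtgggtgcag
KRT8, chr7:135010340-135010589, minus strand: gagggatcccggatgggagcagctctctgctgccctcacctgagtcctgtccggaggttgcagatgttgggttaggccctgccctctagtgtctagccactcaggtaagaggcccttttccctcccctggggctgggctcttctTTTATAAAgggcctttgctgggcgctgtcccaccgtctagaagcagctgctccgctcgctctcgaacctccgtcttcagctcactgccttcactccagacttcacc
KRT18, chr7:135035918-135036167, plus strand: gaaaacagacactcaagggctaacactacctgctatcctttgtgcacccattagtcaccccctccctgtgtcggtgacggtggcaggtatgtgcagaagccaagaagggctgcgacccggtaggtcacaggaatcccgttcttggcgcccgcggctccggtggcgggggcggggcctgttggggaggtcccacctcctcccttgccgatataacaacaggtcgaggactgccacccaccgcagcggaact
Of the 10 genes, 9 had an entry in that table, all but ACTB, whose promoter was therefore not searched. CCAAT lay in 5 of these 9 promoters, ACTG1, TUBA1A, TUBA1B, TUBB5 and STMN1, and in 34.0% of all 33469 promoters of the same length and 37.0% of the 6107 that belonged to genes tested here. In the 3 microtubule genes printed it began at positions -96 (TUBA1B), -143 (TUBB5) and -116 (STMN1), counted back from -1 as the last base before the start. TATAAA was found in TUBB2A and KRT8 (12.9% of all promoters, 6.83% of those of tested genes). In KRT8 a match on each strand overlaps the other, so that 1 stretch of capitals covers both. A CArG box, the element bound by serum response factor, was found in ACTG1 alone of the 9 searched (1.5% and 1.13%). GGGCGG was present in 8 of the 9, all but KRT8 (30.5% and 58.9%). STMN1 held TTTGGCGC, 1 of the 2 forms searched of the E2F-type element TTTCCCGC or TTTGGCGC (1.21% and 2.55%), at positions -79 to -72. TGANTCA and TTTGAA matched none of the 9. These are letter matches in a fixed window.

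Of the 10 members, 8 averaged 1 RPKM or more across the columns and were tested with the 8459 genes of the table that passed this filter. ACTG1 and TUBA1A fell below it. ACTG1, cytoplasmic γ-actin, was listed between 0 and 0.14 RPKM in every column, against 242.08 to 569.97 RPKM for ACTB. GAPDH and PPIA, which nearly every cell transcribes strongly and which were looked up after the ACTG1 values were seen, were likewise listed between 0.05 and 0.54 RPKM and between 0.06 and 0.4 RPKM. How reads that match several genes were counted is not given in the sources used here, so these values set no level for γ-actin. TUBA1A, an α-tubulin best known from neurons, ranged from 0.47 to 2.21 RPKM, with its highest 3 values at 24 h (1.86 in Control, 2.21 in BF and 1.32 in BA). Tubulin genes are also alike in sequence, and the division of reads among them carries the same limit.

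The tissue was liver in every column. Albumin (ALB) made up 5.60 to 13.4% of the summed RPKM in 11 columns and 30.9% in BA at 4 h, where the 10 highest genes together took 53.2% against 29.4 to 41.0% elsewhere. In BF at 12 h the summed level of 10 pancreatic acinar markers was 142.4 RPKM, against at most 23.4 RPKM in the other columns. RPKM is relative to the column total, and the median gene shifted by -0.20 at 4 h, -0.12 at 12 h and 0.21 at 24 h against 0 h in log2(RPKM + 1). Results that depend on this shift are given with columns rescaled on the median gene as well, and those that rest on BA at 4 h with that column left out.

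At 24 h after PH 6 of the 8 members were higher than at 0 h (limma, Benjamini-Hochberg adjusted p under 0.05 over 8459 genes). They were STMN1, TUBB5, TUBA1B, TUBB2A, KRT8 and TMSB10. The 13 tested cell cycle genes were all higher too. Several of them, such as CCNA2 (0.18 to 0.87 RPKM before 24 h and 28.22 to 59.76 RPKM at 24 h), passed the filter only through their 24 h columns. Their count was thus partly fixed by the filter. In this comparison 30.6% of all tested genes were called higher and 5.54% lower, and the median log2 change was 1.20 over the 8 members and 0.21 over all genes. With columns rescaled on the median gene the split of all calls turned from 84.7% higher to 37.6% higher (10.3% of all tested genes higher and 17.1% lower), and 3 members remained called, STMN1, TUBB5 and TUBA1B. In 7 of the 8, all but ACTB, the 3 columns at 24 h lay above all 3 at 0 h, as they did for 40.1% of all tested genes, while 9.45% lay below. A rise of at least 2-fold in each of the 3 groups was seen for STMN1, TUBB5 and TUBA1B, and for 2.54% of all tested genes.

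**Figure D1:**
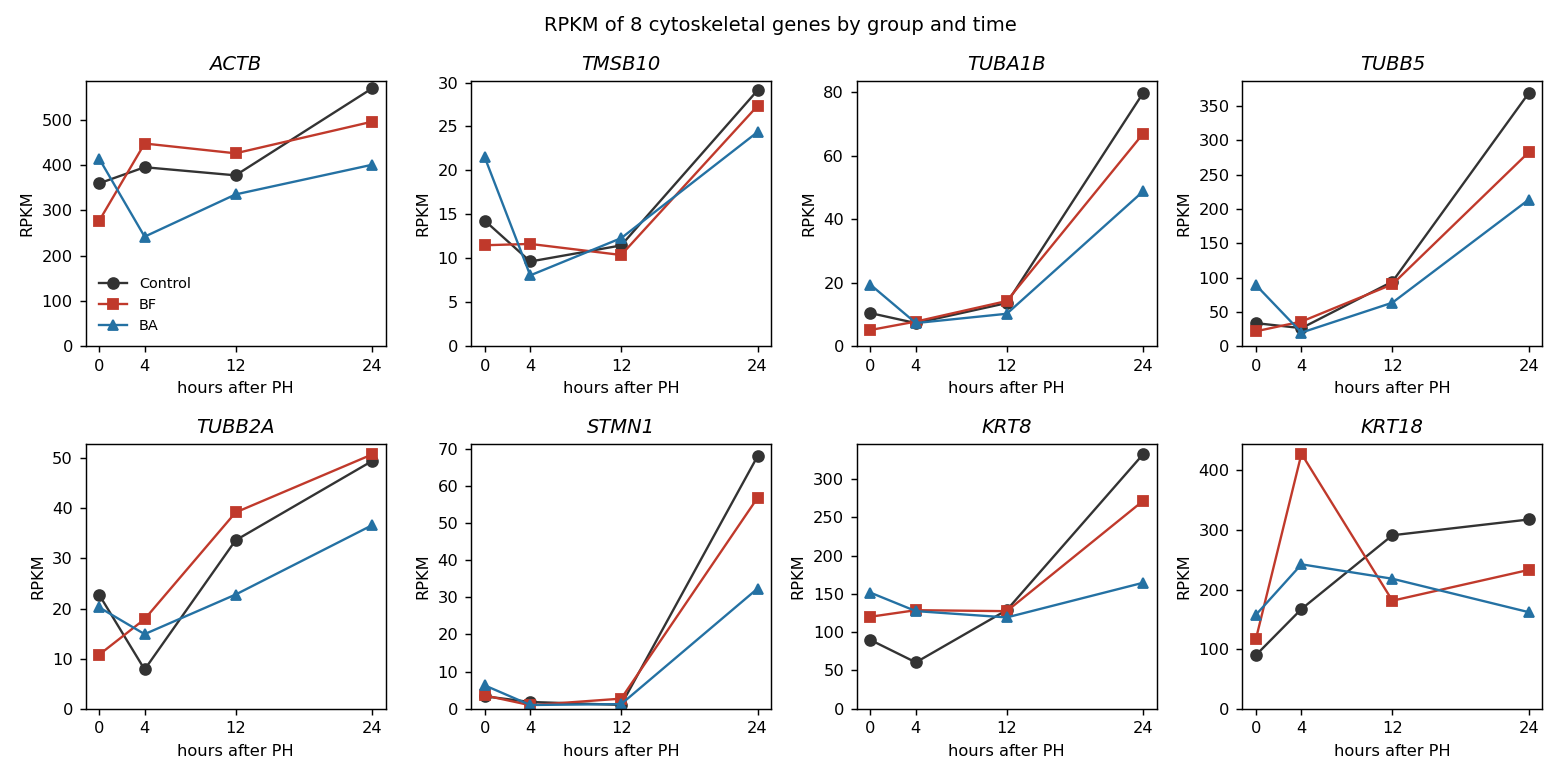
RPKM (linear axes from 0, a scale of its own in each panel) of the 8 tested members against hours after PH. Each point is the 1 column of a group at a time, joined by lines within Control (black circles), BF (red squares) and BA (blue triangles). TUBA1B, TUBB5 and STMN1 are highest at 24 h in all 3 groups, whereas KRT18 is highest at 4 h in BF (427.73 RPKM) and BA (242.33 RPKM).

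STMN1, which destabilizes microtubules and is abundant in dividing cells, had the largest change of the members. It stood at 3.36, 1.83, 1.05 and 67.94 RPKM at 0, 4, 12 and 24 h in Control, at 3.60, 0.96, 2.73 and 56.75 RPKM in BF and at 6.29, 1.02, 1.26 and 32.34 RPKM in BA. The 24 h columns were far above all others, and the 4 and 12 h columns were all below those at 0 h. Against 0 h, log2(RPKM + 1) changed by -1.24 ± 0.33 (SE) at 4 h (limma adjusted p = 0.0147), by -1.03 ± 0.33 at 12 h (limma adjusted p = 0.0419) and by 3.28 ± 0.33 at 24 h (limma adjusted p = 0.000247). The 24 h call held under every alternative tried, with adjusted p between 2.88e-05 and 0.0146. The 12 h call did not hold without BA at 4 h (adjusted p = 0.0526) or with any 1 group left out (adjusted p = 0.126, 0.0738 and 0.159 without Control, BF and BA), and the 4 h call did not hold without BF (0.0658) or BA (0.0781). At these times the values were between 0.96 and 2.73 RPKM, near the 1 RPKM added before the logarithm, and with 5 RPKM added the calls were lost (adjusted p = 0.0615 at 4 h and 0.124 at 12 h).

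TUBB5, a widely expressed β-tubulin, was the most abundant tubulin member. In Control it was 33.48, 26.18, 94.04 and 369.25 RPKM at 0, 4, 12 and 24 h, in BF 21.61, 35.80, 90.11 and 282.90 RPKM, and in BA 88.95, 19.70, 63.36 and 213.74 RPKM. The BA column at 0 h stood above the other 2 at that time and above its own values at 4 and 12 h. At 24 h the 3 columns averaged 289 ± 77.9 RPKM (SD, n = 3) against 48.0 ± 35.9 RPKM at 0 h, a fitted log2 change of 2.78 ± 0.46 (limma adjusted p = 0.00262), and without Control the adjusted p was 0.0530. The rise from 0 h to 24 h was 11.0-fold in Control and 13.1-fold in BF but 2.40-fold in BA, where the starting value was highest. At 12 h the fitted log2 change was 1.00 ± 0.46 (limma adjusted p = 0.130), and with BA left out it was 1.74 (adjusted p = 0.0141).

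TUBA1B, a ubiquitous α-tubulin, followed the same order. It was 10.40, 7.25, 13.57 and 79.81 RPKM in Control, 5.07, 7.73, 14.21 and 66.99 RPKM in BF and 19.37, 7.26, 10.19 and 48.80 RPKM in BA. The 3 groups lay between 7.25 and 7.73 RPKM at 4 h but between 5.07 and 19.37 RPKM at 0 h. The log2 change at 24 h was 2.53 ± 0.36 (limma adjusted p = 0.00135), and it was called under every alternative.

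TUBB2A, a β-tubulin isotype prominent in brain, had a smaller fitted change. It was 22.75, 7.84, 33.60 and 49.40 RPKM in Control, 10.79, 17.88, 39.16 and 50.72 RPKM in BF and 20.23, 14.89, 22.78 and 36.60 RPKM in BA. Both the 12 h and the 24 h columns were above all 0 h columns, with a log2 change of 0.82 ± 0.35 at 12 h (limma adjusted p = 0.103) and 1.35 ± 0.35 at 24 h (limma adjusted p = 0.0166). The 24 h call did not hold after rescaling (1.02, adjusted p = 0.0564) or without BF (0.96, adjusted p = 0.118).

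The other tubulins set these members in context. Of 11 tested tubulin genes, the 3 tested tubulin members included, 10 were higher and 0 lower at 24 h (30.6% and 5.54% of all tested genes). Their median log2 change was 1.36, and 8 were higher after rescaling (10.3% of all tested genes). TUBB3, counted among those higher, was 0.52 to 1.49 RPKM before 24 h and 2.39 to 4.06 RPKM at 24 h. It passed the filter only through its 24 h columns, so the count and the median were partly fixed by the filter. TUBB2C, a β-tubulin and the most abundant tubulin at 0 h in each group, averaged 77.9 ± 27.9 RPKM at 0 h and 296 ± 46.8 RPKM at 24 h (SD, n = 3), a log2 change of 1.98. TUBA1C, another α-tubulin, changed by 2.12 on the same scale (limma adjusted p = 0.00113). The sum of 5 β-tubulins (TUBB2A, TUBB2C, TUBB3, TUBB5 and TUBB6) went from 149, 81.1 and 229.4 RPKM at 0 h in Control, BF and BA to 853, 735 and 568 RPKM at 24 h. The sum of 4 α-tubulins (TUBA1A, TUBA1B, TUBA1C and TUBA4A) went from 115, 67.5 and 154.9 RPKM to 325, 311 and 259 RPKM, so the ratio of β to α rose from 1.29, 1.20 and 1.48 to 2.63, 2.36 and 2.20. TUBB5 made up 22.5, 26.6 and 38.8% of the β sum at 0 h and 43.3, 38.5 and 37.6% at 24 h.

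TUBB6, a β-tubulin that is no member, was already called at 4 h. It was 1.86, 24.25, 26.25 and 92.94 RPKM in Control, 2.09, 22.97, 21.61 and 92.23 RPKM in BF and 21.84, 88.73, 24.86 and 70.08 RPKM in BA. The fitted log2 change was 2.69 at 4 h (limma adjusted p = 0.00641), 2.10 at 12 h (adjusted p = 0.0269) and 3.86 at 24 h (adjusted p = 0.00199). Its share of the β sum rose from 1.25, 2.58 and 9.52% at 0 h to 21.4, 16.2 and 51.7% at 4 h, the last in the BA column that stands apart. TUBA4A fell at 4 h, from 78.91, 43.84 and 93.22 RPKM to 21.23, 38.82 and 23.07 RPKM (log2 change -1.33, limma adjusted p = 0.00809). Of the 11 tubulins, 1 was called higher and 3 lower at 4 h, against 12.9% of all tested genes higher and 32.4% lower, and without BA at 4 h 1 was higher and 1 lower.

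**Figure D2:**
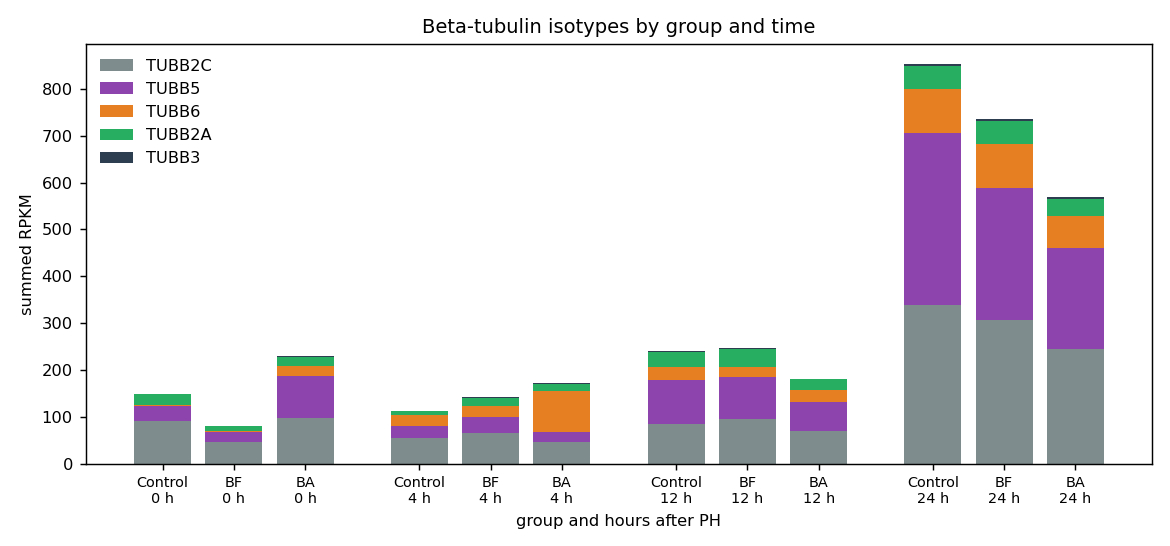
Summed RPKM of 5 β-tubulin genes, stacked, in each group and time (bars start at 0, 1 column each, no error). TUBB2C (grey), TUBB5 (purple) and TUBB6 (orange) make up most of the sum, which is 568 to 853 RPKM at 24 h, and TUBB6 is the largest segment only in BA at 4 h (51.7%).

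ACTB, cytoplasmic β-actin, had the highest RPKM of the members except in BA at 4 h, where KRT18 matched it (242.33 RPKM). It was 360.01, 395.70, 377.74 and 569.97 RPKM in Control, 277.10, 448.15, 426.47 and 496.36 RPKM in BF and 414.75, 242.08, 335.53 and 401.08 RPKM in BA. The 0 h and 24 h columns overlapped, since BA at 24 h was below BA at 0 h. The log2 change was 0.02 ± 0.23 at 4 h, 0.13 ± 0.23 at 12 h and 0.48 ± 0.23 at 24 h (95% interval -0.03 to 1.00, limma adjusted p = 0.123), and without BA it was 0.75 at 24 h (adjusted p = 0.0343). TMSB10, a thymosin that binds actin monomers, was 14.28, 9.63, 11.46 and 29.12 RPKM in Control, 11.48, 11.63, 10.37 and 27.35 RPKM in BF and 21.49, 8.05, 12.29 and 24.37 RPKM in BA. Its log2 change was -0.61 ± 0.21 at 4 h (limma adjusted p = 0.0396) and 0.78 ± 0.21 at 24 h (limma adjusted p = 0.0185). The 4 h call was lost without BA at 4 h (-0.41, adjusted p = 0.168), without BF at 12 h (0.0528), and without Control (0.142) or BA (0.257). It was also lost without the filter (limma adjusted p = 0.0645), without the 12 h columns (0.0719) and without the 24 h columns (0.0662). After rescaling the changes were -0.48 (adjusted p = 0.0572) and 0.46 (adjusted p = 0.0883), and the 24 h call was also lost without Control (adjusted p = 0.165) or BF (0.138). TMSB4X, the related thymosin, had a log2 change of -0.13 ± 0.10 at 24 h (limma adjusted p = 0.366) and fell at 12 h by 0.50 (adjusted p = 0.00764).

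Of 28 tested genes of actin assembly and turnover, TMSB10 among them, 13 were higher and 1 lower at 24 h (30.6% and 5.54% of all tested genes). Their median log2 change was 0.34, against 0.21 over all genes. After rescaling 3 were higher and 2 lower, where 10.3% of all tested genes were higher and 17.1% lower. CFL1, cofilin, which severs actin filaments, rose by 1.05 ± 0.17 at 12 h and 0.99 ± 0.17 at 24 h (limma adjusted p = 0.00270 and 0.00286). GSN, gelsolin, another severing protein, fell by 0.55 at 24 h (adjusted p = 0.0210). Of 21 crosslinking, tropomyosin and myosin genes 12 were higher and 0 lower at 24 h (30.6% and 5.54% of all tested genes). After rescaling 9 were higher and 0 lower (10.3% and 17.1%). MYH10, a myosin counted among those higher, was 0.43 to 0.79 RPKM before 24 h and 1.54 to 3.74 RPKM at 24 h. It passed the filter only through its 24 h columns, so the count was partly fixed by the filter. TPM4, a tropomyosin, was 20.84 to 33.40 RPKM at 0 h and 67.44 to 113.12 RPKM at 4 h (log2 change 1.69, limma adjusted p = 0.000696). TAGLN, transgelin, which smooth muscle and activated stellate cells also express, rose by 1.62 at 24 h (adjusted p = 0.00464). CNN3, calponin 3, fell by 1.28 at 4 h and 1.38 at 12 h and was at -0.08 at 24 h (adjusted p = 0.00151, 0.00193 and 0.786). Of 4 tested genes for serum response factor and its partners, 1 was higher at 24 h, FHL2 (0.73, adjusted p = 0.00333), which is near the 30.6% of all tested genes.

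Of 16 genes of microtubule assembly and turnover, STMN1 among them, 9 were higher and 1 lower at 24 h (30.6% and 5.54% of all tested genes). After rescaling 4 were higher and 2 lower (10.3% and 17.1%). Their median log2 change was 0.35, against 0.21 over all genes. DYNLL1, a dynein light chain, rose from 16.94 to 33.31 RPKM at 0 h to 61.86 to 80.17 RPKM at 24 h (log2 change 1.63, limma adjusted p = 0.00541). MAPRE3, a protein of microtubule plus ends, was the 1 lower gene (-0.43, adjusted p = 0.0389). Without BF at 12 h 7 were higher and 0 lower, so that the MAPRE3 call was lost.

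**Figure D3:**
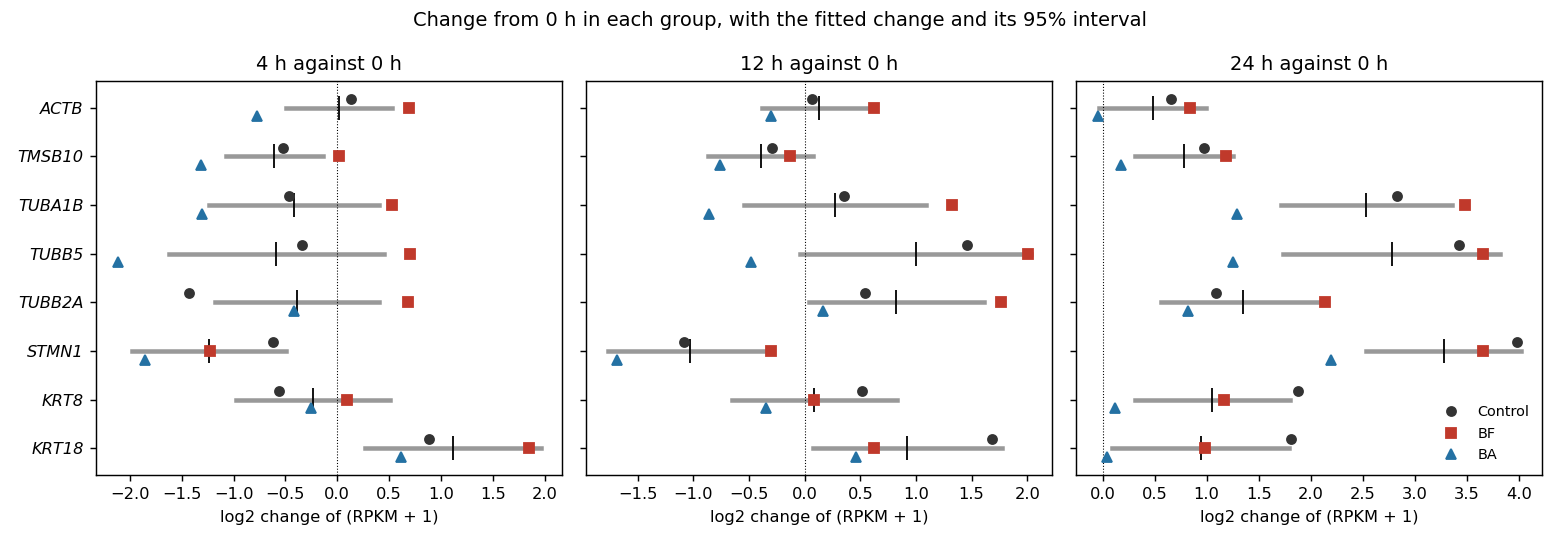
Change of log2(RPKM + 1) from 0 h for each of the 8 members at 4, 12 and 24 h (x axes differ in range). Symbols are the 3 groups (Control black circles, BF red squares, BA blue triangles), the tick is the limma estimate and the grey bar its 95% interval. At 24 h the symbols of STMN1, TUBB5 and TUBA1B all lie above 1, and BA is the leftmost symbol for all 8 members. The median tested gene also rose least in BA (0.15, against 0.21 in Control and 0.28 in BF).

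KRT8 and KRT18 stood at nearly the same RPKM at 0 h and then parted. KRT18 was 90.12, 167.34, 291.09 and 317.55 RPKM in Control, 117.60, 427.73, 181.31 and 232.98 RPKM in BF and 157.78, 242.33, 218.13 and 162.05 RPKM in BA. All columns after PH were above all columns at 0 h. KRT8 was 89.89, 60.57, 128.86 and 332.43 RPKM in Control, 120.15, 128.73, 127.46 and 271.55 RPKM in BF and 151.65, 127.52, 119.27 and 164.57 RPKM in BA. At 4 and 12 h its columns overlapped those of 0 h, and at 24 h they lay above them.

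At 4 h 3 of 8 members were called, KRT18 higher by 1.12 ± 0.38 on the log2 scale (limma adjusted p = 0.0371) and STMN1 and TMSB10 lower. Of all tested genes 12.9% were called higher and 32.4% lower at 4 h, or 28.4% of calls higher, and after rescaling 41.9% of calls. The KRT18 call was lost without the filter (adjusted p = 0.0643), without BA at 4 h (1.14, adjusted p = 0.0914), without BF (0.75, 0.218) or without BA altogether (1.37, 0.0807). KRT18 was the 1 member whose 4 h columns all lay above 0 h (13.6% of all genes), and STMN1 the 1 whose columns all lay below (33.7%). At 12 h STMN1 was the only member called, lower, where 9.03% of all genes were called higher and 22.5% lower (28.7% of calls higher, 49.0% after rescaling). TUBB2A and KRT18 lay above all 0 h columns at 12 h (12.4% of all genes) and STMN1 below (32.5%). At 24 h KRT8 was higher by 1.05 ± 0.33 (limma adjusted p = 0.0336), which did not hold after rescaling (0.72, adjusted p = 0.137), without the filter (0.0571), without the 12 h columns (0.0590), or without Control (0.122) or BF (0.215). KRT18 differed by 0.94 ± 0.38 (95% interval 0.09 to 1.79, adjusted p = 0.0781).

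The ratio of KRT8 to KRT18, a comparison within each column that rescaling leaves as it is and that was chosen after the values were seen, was 0.997 in Control, 1.02 in BF and 0.961 in BA at 0 h. It was 0.362, 0.301 and 0.526 at 4 h, 0.443, 0.703 and 0.547 at 12 h, and 1.05, 1.17 and 1.02 at 24 h. The 4 and 12 h ratios were all below all those at 0 h, and the 24 h ratios were back near 1. The log2 difference from 0 h within a group was -1.36 ± 0.46 (SD, n = 3) at 4 h, -0.84 ± 0.32 at 12 h and 0.11 ± 0.07 at 24 h. A two-sided exact permutation test of the 3 ratios against the 3 at 0 h gave p = 0.1 at 4 and 12 h, the smallest that 3 against 3 allows, and 0.2 at 24 h (0.15, 0.15 and 0.2 adjusted over the 3 times). Exchanging times only within each group, the exact permutation p was 0.25 at each time, the smallest that 3 pairs allow.

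**Figure D4:**
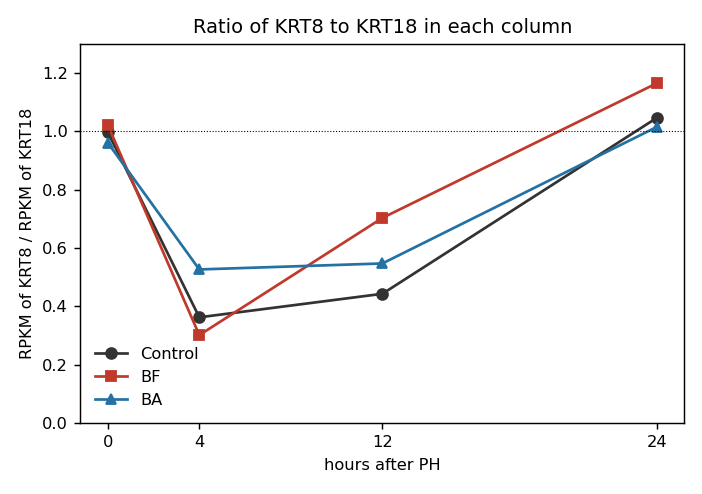
Ratio of KRT8 to KRT18 RPKM in each column against hours after PH, 1 line a group (Control black circles, BF red squares, BA blue triangles), with a dotted line at 1. The ratio lies between 0.961 and 1.02 at 0 h, between 0.301 and 0.526 at 4 h and between 1.02 and 1.17 at 24 h.

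The other keratins looked up were low. Of 16 keratin symbols looked up 13 were found, of which 4 passed the filter. KRT8 was the 1 called at 24 h, higher, where 30.6% of all tested genes were called higher and 5.54% lower. After rescaling 0 of the 4 were called, where 10.3% of all tested genes were higher and 17.1% lower. KRT19, a keratin of bile duct cells, was 0.78 to 3.89 RPKM over the 12 columns, with a log2 change of 0.31 ± 0.22 at 24 h (limma adjusted p = 0.290). The summed level of 8 bile duct cell markers found of 11 was 30.5 to 31.7 RPKM at 0 h, 12.8 to 19.5 RPKM at 4 h, 19.8 to 28.0 RPKM at 12 h and 26.5 to 30.2 RPKM at 24 h. Of 9 other filament and linker genes 3 were higher and 0 lower at 24 h (30.6% and 5.54% of all tested genes), and after rescaling 2 were higher and 1 lower (10.3% and 17.1%). Those higher before rescaling included VIM, vimentin of mesenchymal cells (1.20 ± 0.16, limma adjusted p = 0.000992), and LMNB1, the nuclear lamin B1 (1.23 ± 0.18, adjusted p = 0.00140). JUP, plakoglobin of desmosomes, fell at 4 h by 1.34 (adjusted p = 0.00113).

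Markers of other liver cells gave these sums at 0 h and 24 h. Stellate cell and myofibroblast markers were 90.2 to 109.0 RPKM and 107.8 to 121 RPKM, macrophage markers 432.5 to 501.9 RPKM and 399.5 to 466.9 RPKM, endothelial markers 129 to 146 RPKM and 103 to 127 RPKM, and leukocyte markers 15.2 to 29.7 RPKM and 32.9 to 58.2 RPKM. Of 9 tested stellate cell and myofibroblast markers 2 were higher and 1 lower at 24 h (30.6% and 5.54% of all tested genes). TAGLN, also counted among the actin genes above, was 9.86, 7.43 and 13.48 RPKM at 0 h in Control, BF and BA. At 24 h TAGLN was 34.57, 36.59 and 27.91 RPKM. LRAT was the lower gene (-0.95, limma adjusted p = 0.00329). Within the leukocyte markers the sum moved with S100A8 (0.63, 8.58 and 9.28 RPKM at 0 h and 11.64, 17.62 and 26.56 RPKM at 24 h in Control, BF and BA) and S100A9 (2.25, 13.48 and 12.57 RPKM and 14.94, 17.77 and 26.95 RPKM), genes of neutrophils and monocytes. The pan-leukocyte gene PTPRC was 3.66 to 4.61 RPKM at 0 h and 3.15 to 3.90 RPKM at 24 h. The part of these cells in the member values was not tested. In whole liver, fewer cells of a type and less RNA per cell cannot be told apart. The 13 tested cell cycle genes had a median log2 change of 4.55 at 24 h, with CCNB1, cyclin B1, at 0.56 to 1.54 RPKM at 0 h and 67.20 to 95.28 RPKM at 24 h. Several of them passed the filter only through their 24 h columns, so the filter favoured a high median.

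Between groups, over the 4 times, no member was called (limma, 0 of 8 in each of the 3 comparisons, 0 at an unadjusted p under 0.05, and 0 by limma without the intensity trend). BF against Control called 0.319% of all genes higher and 0.485% lower, BA against Control 0% and 0.0709%, and BF against BA 0.0118% and 0%. The fitted differences of the members ran from -0.25 to 0.30 for BF against Control, -0.29 to 0.17 for BA against Control and -0.19 to 0.24 for BF against BA on the log2 scale. The smallest adjusted p was 0.564, 0.376 and 0.763. The intervals were wide, for TUBB5 -1.05 to 0.75 for BF against Control and -0.99 to 0.81 for BA against Control, so that a 2-fold lower level in BF lies within the first.

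At single times there is 1 column a group, no replicate check and no test. At 0 h BA was the highest group for 7 of the 8 members, all but TUBB2A, and for 26% of all tested genes. TUBB5 was 88.95 RPKM there against 33.48 in Control and 21.61 in BF, and TUBA1B 19.37 RPKM against 10.40 and 5.07. BA was at least 2-fold above Control for TUBB5 (1.87% of all genes in that direction), and BF at least 2-fold below BA for TUBB5 and TUBA1B (1.39%) and below Control for TUBB2A (2.16%). At 4 h BF was the highest for 7 of 8 (32.6% of all genes), and after rescaling for 5 of 8 (34.7%). KRT18 was 427.73 RPKM in BF against 167.34 in Control, and KRT8 was 128.73 RPKM in BF and 127.52 in BA against 60.57 in Control. At least 2-fold above Control at 4 h were TUBB2A, KRT8 and KRT18 in BF (1.19% of all genes) and KRT8 in BA (2.02%). At 24 h BA was the lowest for all 8 members and for 54.6% of all genes, and after rescaling for 8 of 8 and 35.6%. STMN1 was 32.34 RPKM in BA at 24 h against 67.94 in Control and KRT8 164.57 RPKM against 332.43, the 2 members at least 2-fold apart, as 1.32% of all genes were in that direction. The change from 0 h to 24 h was smallest in BA for each of the 8 members, and there ran from 0.967-fold for ACTB to 5.14-fold for STMN1. The median tested gene also rose least in BA, by 0.15 against 0.21 in Control and 0.28 in BF in log2(RPKM + 1). The share of all genes with the smallest change in BA was not counted, so this is not shown to be particular to the members.

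The genes most like each member over the 12 columns, by Pearson's r of log2(RPKM + 1) among tested genes, are given as a description, since the columns share groups, times and scaling. For STMN1 they were CKS2 (r = 0.996), BLM (0.992) and DUT (0.991). For TUBA1B the nearest was the β-tubulin TUBB2C (0.989), followed by FIGNL1 (0.987) and PLP2 (0.986). TUBB5 was nearest to MBD3 (0.981), RGD1307465 (0.979) and PPIL1 (0.977), and TMSB10 to TMPO (0.976), CDAN1 (0.966) and VRK1 (0.965). The values were lower for TUBB2A (TMEM185A, 0.942), KRT8 (CXADR, 0.931), ACTB (HSPBAP1, 0.921) and KRT18 (TMEM110, 0.920). After rescaling r was 0.988 to 0.995 for the genes named for STMN1 and 0.981 to 0.986 for those of TUBA1B. For TMSB10 it was 0.916 to 0.951. For TUBB5 it was 0.897 with MBD3, 0.981 with RGD1307465 and 0.956 with PPIL1. It fell to 0.752 for TMEM185A, 0.779 for CXADR and 0.835 for HSPBAP1, and was 0.913 for TMEM110. The nearest genes on the rescaled values were not looked up. Among the members TUBA1B and TUBB5 were the most alike (r = 0.962, 0.952 after rescaling). KRT18 was least like the microtubule genes, with r = 0.0151 to STMN1 and 0.43 to its partner KRT8.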

How the data were processed

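Liver RNA of 12 group and time combinations was read from 1 deposited table of RPKM values. Per the labels and the study's methods, the authors made poly(A) libraries, and the submitters' processing notes name CASAVA, Bowtie 0.12.2 and the builds rn4 and mm8, without roles. The annotation and the handling of reads that match several genes are not given in the sources used here. The authors combined 2 runs for each column. No counts were analysed here, so the depth is unknown, no counting interval can be given, and whole reads were not recovered from RPKM.

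Genes averaging 1 RPKM or more (8459 of 14692) were fitted as log2(RPKM + 1) with limma 3.58.1 in R 4.3.3, with group and time as additive terms and an intensity trend, and p-values were adjusted over all 8459 genes (Benjamini-Hochberg, threshold 0.05). Fold changes on this scale understate those of low genes. A time is compared over 3 columns and a group over 4, so p-values measure a change against the spread of the groups' courses, not between rats. The keratin ratio was tested with scipy 1.17.1. The fit was tested on simulated data. Samples were grouped by title, and columns were matched by name.

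The members and gene lists were chosen with earlier results of these data known. Named genes are the members, from each list the 2 genes with the largest positive and the 2 with the largest negative change at 24 h (a selection is printed), the 3 nearest genes of each member, and CYP7A1. Others (GAPDH, PPIA, TUBB2C, TUBB3, TUBA1C, TUBA4A, KRT19, CCNA2, MYH10) were named after their values were seen. Alternatives were other pseudocounts (0.1 and 5 RPKM), no filter, columns rescaled on the median gene, limma without trend, no group or time term, each group or time left out, 2 columns left out (BA at 4 h was added after seeing the data), and the fistula names exchanged.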

Additional observations from a re-analysis of the deposited data

Results flagged for a closer look

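The direction of change from 0 h differed between the groups for 6 members, with every group being a single column, so none of these differences was tested. The share of all tested genes with such a difference was not counted, so it is not shown to be particular to the members. Each value below is the gap between the highest and the lowest group's log2 change.

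At 4 h TUBB5 was higher in BF (0.70) and lower in Control (-0.34) and BA (-2.12), a gap of 2.82. TUBB2A was higher in BF and lower in the others, most in Control (-1.43), a gap of 2.11. The gap was 1.83 for TUBA1B and 1.33 for TMSB10, again with BF above 0 and the others below. ACTB was higher in Control and BF (0.69) and lower in BA (-0.77), a gap of 1.47. For KRT8 the gap was 0.66, with BF at 0.10 and Control at -0.56, and the sign in BA turned after rescaling on the median gene (from -0.25 to 0.02).

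At 12 h Control and BF were higher and BA lower for TUBB5 (gap 2.49), TUBA1B (2.19), ACTB (0.93) and KRT8 (0.86). At 24 h ACTB was higher in Control and BF and at -0.05 in BA, a gap of 0.89. The BA column at 0 h was the highest of its time for 7 of the 8 members, all but TUBB2A, and for 26% of all tested genes. These 7 include STMN1 and KRT18, whose direction did not differ between the groups.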

How the results depend on the processing

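The limits are those of 12 columns without replicates in a group at a time, an unknown depth, and RPKM values that move with the column total. Time comparisons kept the group as a block, but pairing by animal was not possible, since the labels carry no replicate numbers and each group and time has 1 column. Of 312 member values under alternatives, 268 kept direction and side of the threshold, 33 lost the call, 3 gained it and 8 changed sign, each of these 8 with a group or time left out. The cause of these changes was not tested.

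Members called at 4 h were 3, and 1 without the filter, 1 without BA at 4 h and 0 to 2 with a group or time left out. At 12 h 1 was called, and 0 with 5 RPKM added, without the filter or without BA at 4 h, and 0 to 1 with a group or time left out. At 24 h 6 were called, 3 after rescaling and 3 to 7 with a group or time left out. Genes called with a group or time left out were 2155 to 3530 at 4 h (3833 in all columns), 789 to 2982 at 12 h (2664) and 752 to 3449 at 24 h (3056). With a group or time left out, log2 changes at 4 h ran from -0.32 to 0.41 for ACTB, -0.88 to 0.029 for TUBA1B, -1.23 to 0.18 for TUBB5 and -0.92 to 0.13 for TUBB2A, and at 12 h from -0.12 to 0.34 for ACTB, -0.26 to 0.84 for TUBA1B and -0.13 to 0.30 for KRT8.

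BF against Control called 68 genes, 2 without the filter, 1 without the time term, 10 without BF at 12 h, 6 with the fistula names exchanged and 0 to 36 with a group or time left out, and 39.7% of calls were higher, 66.1% after rescaling. BA against Control called 6, 0 without the filter or without BA at 4 h, 1 without the time term, 68 with the names exchanged and 0 to 15 with a group or time left out. BF against BA called 1, 2 with 5 RPKM added, 3 without BF at 12 h and 0 to 3 with a group or time left out.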
